A study of Mus musculus with 8 samples.

Results

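The pentose phosphate and NADPH supply genes are 10 cytosolic enzymes, chosen by name for what they do, with no threshold on a measured value. They are the oxidative branch of the pentose phosphate pathway (G6pdx, Pgls and Pgd), its non-oxidative branch (Rpia, Rpe, Tkt and Taldo1), the cytosolic malic enzyme Me1, the cytosolic isocitrate dehydrogenase Idh1 and the NAD kinase Nadk. Of these 10 genes, 9 had a probe that could be named and were tested, among 19594 genes and unnamed transcripts in all, and Rpia was not analysed here. All 9 were well above background on all 8 arrays. Total RNA of the kidney was measured in mice aged 8 weeks on 1-colour (Cy3) Agilent 4x44K arrays, with 1 array per mouse. The 4 NEKO mice, Keap1-/-::Nrf2Flox/Flox::K5-Cre, were 2 females (replicates 2 and 3) and 2 males (replicates 5 and 6). Their 4 littermate controls were a female Keap1+/-::Nrf2Flox/Flox mouse (replicate 1) and 3 Keap1+/-::Nrf2Flox/Flox::K5-Cre mice, of which replicate 8 was female and replicates 4 and 7 were male. The mice were on a mixed background of 129Sv/J and C57BL/6J. All 8 mice thus carried floxed Nrf2 and all controls lacked 1 copy of Keap1, so no wild-type kidney was measured. K5-Cre acts in squamous epithelium, so that Nrf2 is lost there and kept in the rest of the body.

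NADPH is the electron donor with which cells reduce glutathione and thioredoxin and build lipids. In the cytosol, G6pdx and Pgd each make it while glucose 6-phosphate is oxidised to a pentose phosphate, and the non-oxidative enzymes return pentose phosphates to glycolysis or draw them from it. Me1 and Idh1 make it from malate and isocitrate, and Nadk makes the NADP that all of them need. Nrf2 is a transcription factor that Keap1 marks for degradation. Nrf2 binds antioxidant response elements, and genes of NADPH supply are among its known targets.

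The promoter windows of the members were read for the core of that element, TGACNNNGC, and for its variant TGAGNNNGC, on both strands. All 10 genes had at least 1 window, from 250 bases before to 50 bases after an annotated RefSeq start (GRCm38.p6), and 5 of the 14 windows held a match. TGACNNNGC occurred in 12.4% and TGAGNNNGC in 17.6% of the 32851 windows of all genes. The 3 member windows with TGACNNNGC are shown, with the match in capitals, because G6pdx and Pgd had the largest differences between the groups and Me1 had a small one.
G6pdx, chrX:74428831-74429130, minus strand: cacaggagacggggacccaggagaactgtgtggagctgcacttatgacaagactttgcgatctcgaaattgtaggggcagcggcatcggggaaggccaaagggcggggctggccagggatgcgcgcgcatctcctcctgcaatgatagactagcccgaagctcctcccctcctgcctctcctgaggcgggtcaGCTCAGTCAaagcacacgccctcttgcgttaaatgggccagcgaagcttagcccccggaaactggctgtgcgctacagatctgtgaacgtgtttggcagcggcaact
Pgd, chr4:149166033-149166332, minus strand: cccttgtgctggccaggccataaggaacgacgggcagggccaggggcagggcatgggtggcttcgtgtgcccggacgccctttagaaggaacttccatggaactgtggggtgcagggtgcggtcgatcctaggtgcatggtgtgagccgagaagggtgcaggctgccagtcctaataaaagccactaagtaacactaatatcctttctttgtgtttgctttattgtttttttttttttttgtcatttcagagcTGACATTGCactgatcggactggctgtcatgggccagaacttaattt
Me1, chr9:86695865-86696164, minus strand: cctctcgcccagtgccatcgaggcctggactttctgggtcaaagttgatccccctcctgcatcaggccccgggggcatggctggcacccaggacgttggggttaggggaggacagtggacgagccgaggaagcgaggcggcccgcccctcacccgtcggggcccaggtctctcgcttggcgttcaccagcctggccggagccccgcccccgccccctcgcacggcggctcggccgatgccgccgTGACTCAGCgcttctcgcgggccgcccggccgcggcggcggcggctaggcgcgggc
Each window is written 5' to 3' on the strand of its gene. In G6pdx the match TGACTGAGC lay on the other strand, at position -57 from the start. In Pgd it was TGACATTGC at position 4, past the annotated start and so within transcribed sequence, not before it. The window of the other annotated Pgd start, which lies further upstream, held no match. In Me1 it was TGACTCAGC at position -6, whose first 7 letters are also the motif of the AP-1 factors. Of the other members, Idh1 (TGAGGCAGC) and Taldo1 (TGAGCGCGC) held a match of the variant, and Tkt, Pgls, Rpe, Rpia and Nadk held none in these windows. These are matches of letters, and binding was not measured on these arrays.

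The NEKO label was checked first with the deleted gene. The log2 level of Keap1, set against the array's 75th percentile as for all levels given here, was 1.84 ± 0.07 (SD, n = 4) in control and 0.20 ± 0.17 (SD, n = 4) in NEKO kidneys. It fell by 1.63 on the log2 scale (SE 0.10, limma adjusted p = 0.00458). The Keap1 probe was still well above background on 4 of 4 NEKO arrays, so its signal was lower but not absent. Between 62.1% and 66.1% of spots were well above background on each array, and no spot was saturated. Each slide held the mice of 1 sex, 2 NEKO and 2 controls, with the control lacking Cre on the female slide, so that a difference between the sexes and one between the slides cannot be told apart.

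The dehydrogenases of the oxidative branch, G6pdx and Pgd, were higher in every NEKO kidney than in every control kidney, but neither passed the test across all genes. Isocitrate dehydrogenase Idh1 was separated in the same way by a smaller difference. Pgls, Rpe and Nadk differed little between the groups. None of the 9 members was called by limma with sex in the model (adjusted p under 0.05), where 0.097% of all genes and transcripts were called higher in NEKO and 0.128% lower. The methods' t-test, for unequal variances, also called 0 members after Benjamini-Hochberg adjustment. At an unadjusted p under 0.05, 5 members (G6pdx, Pgd, Tkt, Taldo1 and Idh1) were higher and 0 were lower, against 7.37% and 10.6% of everything tested. The groups did not overlap, with NEKO higher, for 3 members, and for 0 members with NEKO lower, against 3.88% and 5.39% of everything tested. The median log2 difference was 0.26 over the 9 members and -0.03 over everything tested, and it was above 0 for 9 of 9 members and for 43.8% of everything tested.

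**Figure D1:**
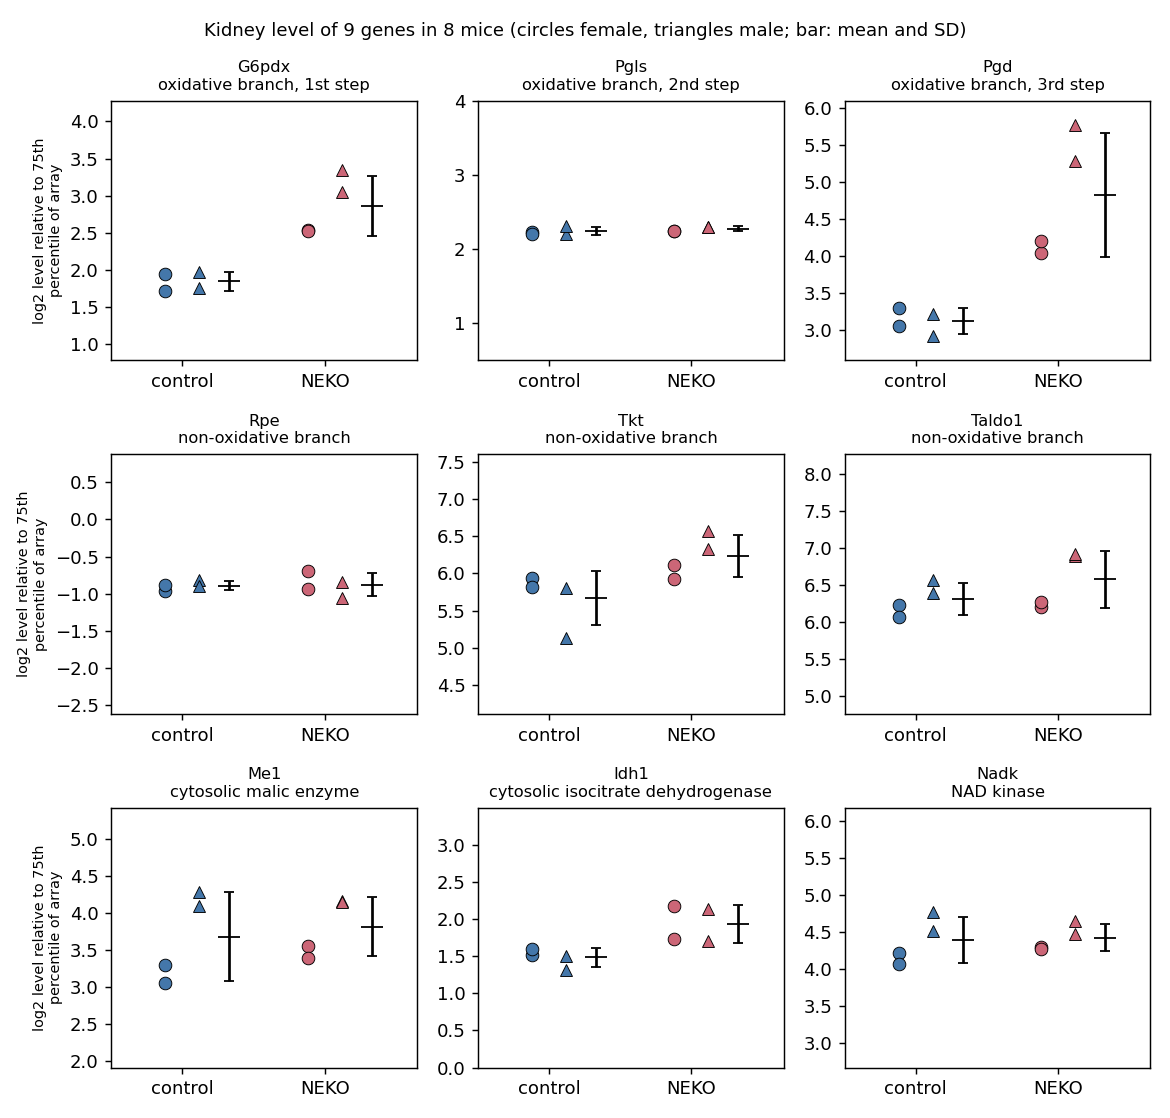
Log2 level of each member gene in each mouse, set against the array's 75th percentile, with 4 control mice (blue) and 4 NEKO mice (red), circles for females and triangles for males, and the mean and SD of each group. All panels span the same number of log2 units, and the groups are apart for G6pdx, Pgd and Idh1 only.

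G6pdx (NM_008062) encodes glucose 6-phosphate dehydrogenase, which makes the first NADPH of the pathway and sets its rate. Its log2 level was 1.72 and 1.94 in the control females, 1.76 and 1.97 in the control males, 2.54 and 2.53 in the NEKO females, and 3.05 and 3.34 in the NEKO males. The 4 NEKO mice were above the 4 controls, and the NEKO males were above the NEKO females. The mean was 1.85 ± 0.13 (SD, n = 4) in control and 2.86 ± 0.40 (SD, n = 4) in NEKO kidneys, a log2 difference of 1.01 (SE 0.16, 95% interval 0.65 to 1.38, or 2.02-fold). The limma adjusted p was 0.0611 and the exact two-sided permutation p was 0.0286, the smallest that 4 against 4 can give. In a model with a separate genotype effect in each sex, the effect averaged over the sexes had a limma adjusted p of 0.0111, and 1.25% of everything tested was called higher there. It was also called with the normexp background correction (log2 difference 0.98, limma adjusted p = 0.0367).

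Pgd (NM_001081274) encodes phosphogluconate dehydrogenase, which makes the second NADPH of the branch. Its log2 level was 3.06 and 3.31 in the control females, 2.92 and 3.22 in the control males, 4.05 and 4.21 in the NEKO females, and 5.28 and 5.77 in the NEKO males. Every NEKO kidney was above every control, and the lower of the NEKO males was above both NEKO females. The log2 difference of 1.70 (SE 0.32, 95% interval 0.95 to 2.44, or 3.25-fold) was the largest of the members, with a limma adjusted p of 0.0796. It was called in the model with an effect in each sex, averaged over both (limma adjusted p = 0.00644). A second Pgd probe, of lower signal, gave a log2 difference of 1.66 (SE 0.31, limma adjusted p = 0.0876), and its groups did not overlap.

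Pgls (NM_025396), the lactonase between these dehydrogenases, had a log2 level of 2.21 to 2.32 in the controls (median 2.22) and 2.25 to 2.30 in the NEKO mice. The groups overlapped, and the log2 difference was 0.04 (SE 0.06, 95% interval -0.11 to 0.18, limma adjusted p = 0.79). To set these differences against each other within each mouse, the log2 level of 1 gene was taken from that of the other, for 8 pairs of genes chosen after the data were seen, with an exact permutation test over mice and Benjamini-Hochberg adjustment over the 8. G6pdx differed by 0.98 more than Pgls and Pgd by 1.66 more than Pgls. Pgd differed by 0.69 more than G6pdx. In these 3 pairs the groups did not overlap, each with the smallest exact permutation p that 4 against 4 can give, 0.0286 (adjusted p = 0.0571). Because the 8 pairs were chosen with these differences in view, their p-values describe the separation and are no separate test of it.

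In the non-oxidative branch, Tkt, Taldo1 and Rpe had smaller differences than G6pdx and Pgd. Transketolase Tkt (NM_009388) moves carbon units between sugar phosphates, and its log2 level was 5.94 and 5.81 in the control females, 5.14 and 5.80 in the control males, 5.93 and 6.11 in the NEKO females, and 6.32 and 6.58 in the NEKO males. The groups overlapped only where the lower NEKO female was just under the higher control female, and the lowest value was that of a control male, replicate 4. The log2 difference was 0.56 (SE 0.22, 95% interval 0.04 to 1.08, limma adjusted p = 0.249), and 0.35 without that control. A second Tkt probe of far lower signal gave 0.90 (SE 0.21, limma adjusted p = 0.127), with groups that did not overlap. Transaldolase Taldo1 (NM_011528), which acts beside Tkt, had a log2 level of 6.23 and 6.07 in the control females, 6.39 and 6.57 in the control males, 6.21 and 6.28 in the NEKO females, and 6.89 and 6.92 in the NEKO males. The NEKO females lay among the controls and the NEKO males above them, and the log2 difference was 0.26 (SE 0.10, 95% interval 0.03 to 0.49, limma adjusted p = 0.237). The epimerase Rpe (NM_025683) ranged from -0.97 to -0.81 in the controls and from -1.05 to -0.69 in the NEKO mice, a log2 difference of 0.01 (SE 0.10, 95% interval -0.21 to 0.24, limma adjusted p = 0.959).

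Among the members outside the pathway, Idh1 (NM_010497) had a log2 level of 1.51 and 1.60 in the control females, 1.31 and 1.51 in the control males, 1.72 and 2.17 in the NEKO females, and 1.71 and 2.13 in the NEKO males. The groups did not overlap, though the lowest NEKO value was close to the highest control. The log2 difference was 0.45 (SE 0.14, 95% interval 0.13 to 0.78, or 1.37-fold), with a limma adjusted p of 0.184. Me1 (NM_008615) had a log2 level of 3.06 and 3.29 in the control females, 4.27 and 4.09 in the control males, 3.56 and 3.40 in the NEKO females, and 4.16 and 4.14 in the NEKO males. Its values split by sex in both genotypes. The NEKO females lay above both control females (log2 difference 0.30), and the NEKO males lay within the range of the control males (-0.03, limma interaction adjusted p = 0.611). The log2 difference between genotypes was 0.14 (SE 0.11, 95% interval -0.12 to 0.39, limma adjusted p = 0.521), and it was 0.06 without control replicate 1, 0.07 without NEKO replicate 2 and 0.21 without control replicate 4. Nadk (NM_138671) ranged from 4.07 to 4.78 in the controls and from 4.27 to 4.65 in the NEKO mice, a log2 difference of 0.03 (SE 0.10, 95% interval -0.20 to 0.26, limma adjusted p = 0.885).

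The difference between NEKO and control was larger in males than in females for 6 of the 9 members, as it was for 50.3% of everything tested. The median log2 difference of the 9 members was 0.14 in females and 0.42 in males. For Pgd it was 0.94 in females and 2.46 in males, which differed by 1.51 on the log2 scale (limma interaction adjusted p = 0.14). For G6pdx it was 0.70 and 1.33, which differed by 0.63 (limma interaction adjusted p = 0.351). For Tkt it was 0.14 and 0.98, which differed by 0.84 (limma interaction adjusted p = 0.438). None of the 9 interactions passed the adjustment over all genes, where 0.0153% of everything tested was called. At an unadjusted p under 0.05 the limma interaction took in these 3 members, against 10.5% of everything tested. With 2 mice for each sex and genotype, a difference between the sexes was measured with little precision.

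**Figure D2:**
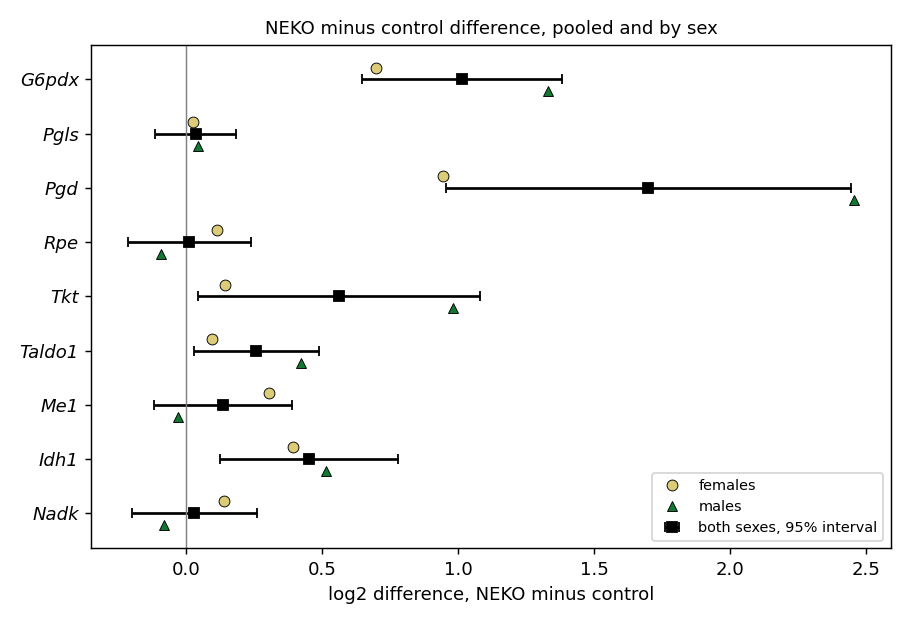
Log2 difference, NEKO minus control, of the 9 member genes: squares with 95% intervals for all 8 mice, circles for the 4 females and triangles for the 4 males. Pgd lies at 1.70 in all, 0.94 in females and 2.46 in males, while Pgls lies near 0 in each.

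Many kinds of cell make up the kidney, and in whole tissue fewer cells of a type and less RNA per cell cannot be told apart. The summed linear level of the 6 intercalated cell markers (Slc4a1, Slc26a4, Atp6v1b1, Atp6v0d2, Foxi1 and Atp6v1g3) was 6.86 to 24.8 in NEKO and 36.7 to 49.7 in control kidneys, with no overlap, and it was lower in the NEKO males than in the NEKO females. Slc26a4 had the highest control level of these markers, with a mean log2 level of 4.69, and so the most weight in the sum. Its log2 difference was -2.07, against -0.09 for Foxi1 (limma adjusted p = 0.0814 and 0.801). Slc4a1, Atp6v0d2, Atp6v1g3 and Atp6v1b1 lay between -0.91 and -0.63, and Slc4a1 was highest in NEKO replicate 5. Slc4a1 is also in the red blood cell list, so both sums hold it. The red blood cell markers Hba-a1 and Alas2 were likewise highest in that mouse. The sum of the 6 urothelium markers was 5.93 and 5.81 in the NEKO males and 1.20 to 2.98 in the other 6 mice. Of the neutrophil markers 3 of 6 were tested, with a sum of 0.353 to 6.67 in NEKO and 0.224 to 0.529 in control kidneys. Its members did not share this, since the log2 difference was 1.81 for S100a8 and 1.64 for S100a9 but 0.05 for Mpo (limma adjusted p = 0.237, 0.272 and 0.911). S100a8 was well above background on 3 of 4 NEKO and 1 of 4 control arrays. The sums of the 10 proximal tubule markers overlapped, at 791 to 976 and 750 to 941. Those of the thick ascending limb (251 and 220) and the distal convoluted tubule (3.66 and 4.26) were lowest in the NEKO males. The sums of the other marker lists overlapped between the groups. Some varied widely between mice, as for adipocytes (37.1 to 99.3 in NEKO, 23.6 to 82.4 in control) and red blood cells (68.7 to 314 and 31.3 to 162). Of the 8 macrophage markers tested, the groups did not overlap for Clec4n alone (log2 difference 2.75, limma adjusted p = 0.0652), and the median log2 difference was -0.01. Of the adrenal markers, Cyp11b2 and Cyp21a1 were well above background on no array, but Star and Mc2r were on 4 of 4 arrays in each group. Star had a log2 difference of -0.15 and Mc2r of -0.16 (limma adjusted p = 0.599 and 0.439). Of the intercalated markers 0 of 6 were called by limma and 4 were lower at an unadjusted p under 0.05, against 10.6% of everything tested. Of the urothelium markers 0 of 6 were called and 4 were higher at that p, against 7.37%. One urothelium marker, Upk1a, was lower in every NEKO kidney than in every control (log2 difference -0.71, limma adjusted p = 0.293). The NEKO males, which had the lowest intercalated and the highest urothelium and neutrophil sums, also had the highest G6pdx and Pgd, and the part of these cells in those values was not tested.

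G6pdx, Idh1, Me1 and Nadk have homologs that do like chemistry in another compartment, and these were read from the same fit. H6pd, the glucose 6-phosphate dehydrogenase of the endoplasmic reticulum, had a log2 difference of 0.23 (SE 0.08, limma adjusted p = 0.209) against 1.01 for G6pdx. Within mice G6pdx differed by 0.79 more than H6pd, with groups that did not overlap (exact permutation p = 0.0286, adjusted p = 0.0571 over the 8 pairs). Idh2, the mitochondrial isocitrate dehydrogenase, had -0.18 (SE 0.14, limma adjusted p = 0.517) against 0.45 for Idh1, and -0.04 without control replicate 1 and -0.31 without control replicate 8. Within mice Idh1 differed by 0.64 more than Idh2 (exact permutation p = 0.0571, adjusted p = 0.0914).

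Of the mitochondrial malic enzymes, Me3 had a log2 level of 1.07 to 1.49 in the controls, 0.83 and 1.13 in the NEKO females, and -0.35 and -0.20 in the NEKO males. Its log2 difference was -0.87 (SE 0.21, limma adjusted p = 0.13), which was called in the model with an effect in each sex, averaged over both (limma adjusted p = 0.0186). Me2 had a log2 difference of 0.28 (SE 0.12, limma adjusted p = 0.294), or 0.17 without control replicate 4. Within mice Me1 differed by 1.01 more than Me3 (exact permutation p = 0.229), and Me1 differed from Me2 by -0.14 (exact permutation p = 0.83). Nadk2, the mitochondrial NAD kinase, had a log2 difference of 0.29 (SE 0.10, limma adjusted p = 0.212), and Nadk differed from it by -0.26 within mice (exact permutation p = 0.143).

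**Figure D3:**
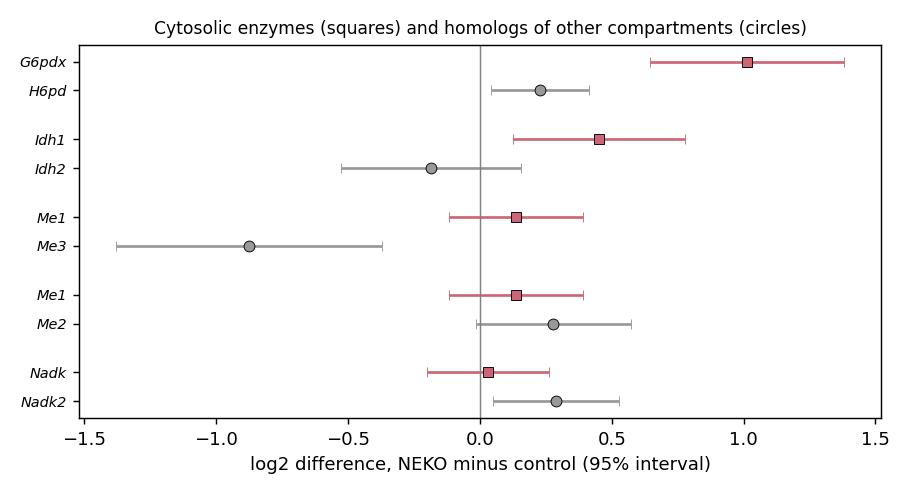
Log2 difference, NEKO minus control, with 95% intervals from limma over 8 mice, for cytosolic enzymes (red squares) and their homologs in the endoplasmic reticulum or mitochondria (grey circles). The interval of G6pdx, 0.65 to 1.38, lies above that of H6pd, 0.04 to 0.41.

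The other genes of the pathway and around NADPH supply were read from lists of the same kind. Of everything tested, 7.37% was higher and 10.6% lower at an unadjusted p under 0.05. Of the 12 other pentose phosphate and ribose genes tested, 0 were called by limma, 3 were higher and 1 lower at an unadjusted p under 0.05, and the median log2 difference was -0.03. The 4 with the largest differences were G6pd2, Pgm1, Prpsap2 and H6pd. G6pd2 is a close copy of G6pdx and its log2 difference was 1.09 (SE 0.23, limma adjusted p = 0.103), but it was well above background on only 1 of 4 control arrays. With the normexp background correction the difference was 0.35, and shared signal with G6pdx was not tested. Phosphoglucomutase Pgm1, which links glycogen to glucose 6-phosphate, had 0.40 (SE 0.08, limma adjusted p = 0.102). Prpsap2, which associates with the synthetase that uses ribose phosphate, had -0.24 (SE 0.07, limma adjusted p = 0.161), with every NEKO kidney below every control.

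Of the 11 genes tested in the list around mitochondrial and other NADPH sources, 0 were called by limma. At an unadjusted p under 0.05, 3 were higher and 2 lower, against 7.37% and 10.6% of everything tested. The median log2 difference of the list was 0.28. Beside Me3, the largest differences were in genes of folate metabolism. Aldh1l2, the mitochondrial formyltetrahydrofolate dehydrogenase, had a log2 level of -4.08 to -3.53 in the controls and -5.76 to -4.39 in the NEKO mice. Its log2 difference was -1.28 (SE 0.21, limma adjusted p = 0.0659), and it was well above background on 1 of 4 NEKO arrays. It was -0.38 with the normexp background correction (limma adjusted p = 0.108), and it was called when averaged over both sexes in the model with an effect in each (limma adjusted p = 0.0315). Mthfd2l had 0.73 (SE 0.21, limma adjusted p = 0.163) and was well above background on 2 of 4 control arrays, and its difference was 0.33 with the normexp background correction. Mthfd1l had 0.52 (SE 0.25, limma adjusted p = 0.318), with -0.08 in females and 1.12 in males (limma interaction adjusted p = 0.13).

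Of the 22 enzymes tested that use NADPH, 1 was called higher by limma and 0 lower, against 0.097% and 0.128% of everything tested. At an unadjusted p under 0.05, 7 were higher and 1 was lower, against 7.37% and 10.6%. The groups did not overlap for 6 that were higher and 1 that was lower, against 3.88% and 5.39%. The median log2 difference of these enzymes was 0.12. Txnrd1, which passes electrons of NADPH to thioredoxin, had a log2 level of 3.65 and 3.81 in the control females, 3.75 and 3.97 in the control males, 4.53 and 4.88 in the NEKO females, and 5.33 and 5.62 in the NEKO males. It rose by 1.30 on the log2 scale (SE 0.17, 2.46-fold, limma adjusted p = 0.0486). That call was lost without control replicate 1, 4, 7 or 8 or NEKO replicate 3, 5 or 6, where the limma adjusted p was 0.0741 to 0.155, and without a sex term (limma adjusted p = 0.0883).

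The 4 users with the largest differences were higher in every NEKO kidney than in every control, as was glutathione reductase Gsr, with a log2 difference of 1.20 (SE 0.26, limma adjusted p = 0.109). The carbonyl reductase Cbr3 had a log2 level of 2.17 and 2.14 in the control females, -0.36 and 0.36 in the control males, 5.80 and 5.90 in the NEKO females, and 7.80 and 8.14 in the NEKO males. Its log2 difference was 5.83 (SE 0.82, limma adjusted p = 0.0542). The aldo-keto reductase Akr1b8 had 2.64 (SE 0.39, limma adjusted p = 0.0577), the quinone reductase Nqo1 had 2.62 (SE 0.43, limma adjusted p = 0.0651) and the biliverdin reductase Blvrb had 2.00 (SE 0.45, limma adjusted p = 0.114). In the model with an effect in each sex, 7 users were called higher when averaged over the sexes and 0 lower, beside G6pdx and Pgd among the 9 members. That average called 1.25% of everything tested higher and 1.37% lower.

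**Figure D4:**
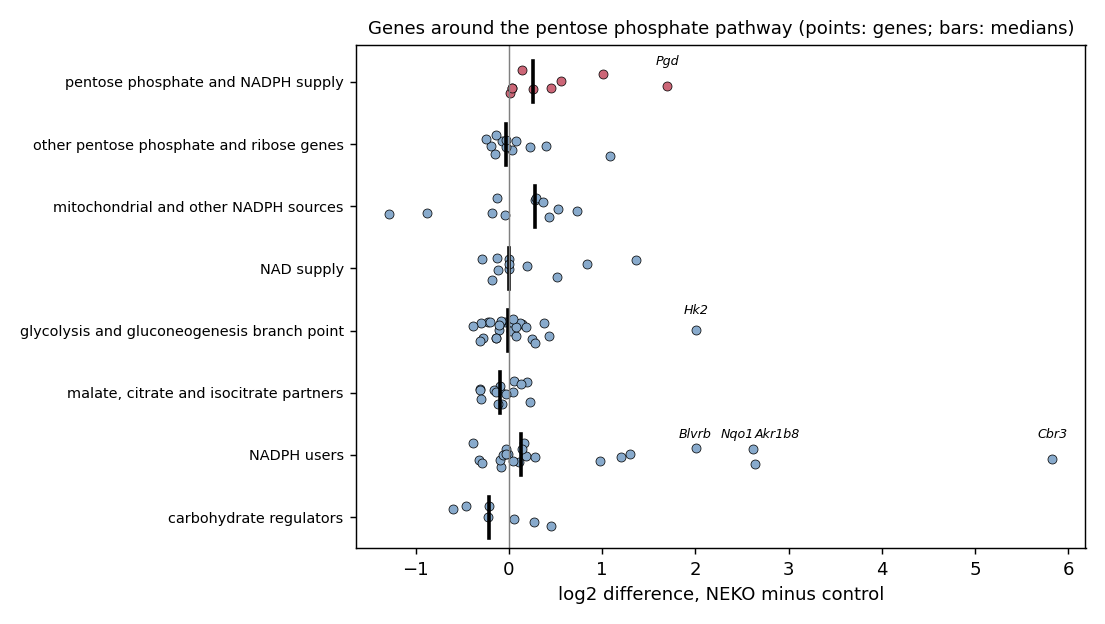
Log2 difference, NEKO minus control, of each tested gene in the member list (red) and in 7 lists of related genes without Keap1 (blue), with the median of each list as a bar and genes beyond 1.5 named. The member median lies at 0.26, and the points above 2 are Hk2 and NADPH users.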

How the data were processed

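Kidney RNA of 4 NEKO and 4 control mice was compared, with groups taken from the sample labels. The authors deposited scanner output of Agilent Feature Extraction 10.7.3.1 (the version is in the submitters' processing notes), in which the processed signal of a spot is a background-subtracted intensity, not normalized between arrays. A matrix of log2 values was deposited beside it. Compared with values recomputed here, 100% of it lay within 0.01 of log2 processed signal scaled to its array's 75th percentile and centred on each probe's median, with column medians of -0.04 to 0.08. The methods do not name how the arrays were normalized.

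Here, 73 to 172 outlier spots per array were left out of 43379, spots of 1 probe were averaged, and the log2 processed signal was used after subtracting the array's 75th percentile over non-control probes. A probe was kept if at least 4 of the 8 arrays had it well above background and at least 6 gave it a value, and the brightest kept probe stood for its gene. Accessions matched RefSeq (GRCm38.p6) for 26682 of 41174 probes, giving 18213 genes. The design's own annotation uses mm9, and none of its coordinates is given. limma 3.58.1 under R 4.3.3 was fitted with sex as a covariate, adjusted by Benjamini-Hochberg over 19594 genes and transcripts, and tested on simulated data. A second model held the interaction of sex and genotype. The number of arrays limits the precision. The limma p-values set a group difference against the spread between these mice, moderated over everything tested.

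Alternatives were normexp on the median signal (offset 50), quantile normalization, median scaling, other filters on dim probes, the mean of kept probes or each probe, no sex term, slide in its place, eBayes with trend and robust, array weights, the methods' t-test, the authors' matrix, the effect averaged over the sexes, and each mouse left out. The members and lists were chosen with earlier results of these data known. Genes named are all members, Keap1, the homologs of members in other compartments and, in each other list, every called gene or, where fewer than 4 were called, the 4 with the largest absolute log2 change. Gsr was named after its values were seen. The pairs of genes and their test were also chosen after the data were seen.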

Additional observations from a re-analysis of the deposited data

How the results depend on the processing

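No paired analysis was possible because the replicate numbers run over both groups and none is shared. The number of members called higher was 0 in the limma fit reported, 1 with normexp, with array weights and with eBayes with trend and robust (G6pdx each time), 2 averaged over the sexes (G6pdx and Pgd), and 3 by the methods' t-test without adjustment (G6pdx, Pgd and Idh1). It was 0 under the other alternatives, each mouse left out and the adjusted methods' t-test included, and no member was called lower or different between the sexes under any. Leaving out 1 mouse gave log2 differences of 0.89 to 1.12 for G6pdx, 1.45 to 1.90 for Pgd, 0.35 to 0.68 for Tkt, 0.36 to 0.55 for Idh1, 0.19 to 0.32 for Taldo1, 0.06 to 0.21 for Me1 and 0.01 to 0.06 for Pgls. Over the alternatives, apart from the t-test without adjustment, the adjusted p ranged from 0.0111 to 0.36 for G6pdx and from 0.00644 to 0.397 for Pgd. The sign turned for Nadk with normexp (-0.00343) and without control replicate 8 (-0.0196), with a range of -0.0196 to 0.105 when 1 mouse was left out, and for Rpe without control replicate 1 (-0.0261), NEKO replicate 3 (-0.0569) or NEKO replicate 5 (-0.0097), with a range of -0.0569 to 0.0745. It also turned for Trp53 with the mean of kept probes (0.0435). No other gene named from the pathway lists turned its sign, and marker genes were not run under the alternatives.

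The number of other pathway genes called higher was 1 in the fit reported, 5 with normexp, 3 both with array weights and with trend and robust, 7 averaged over the sexes, 11 by the methods' t-test without adjustment, and 0 with that test adjusted, with quantile normalization, with no filter on dim probes and with detection on all 8 arrays. Leaving out 1 mouse gave 0 to 1. The number called lower was 1 (Keap1), 2 with array weights, 3 averaged over the sexes, 7 by the t-test without adjustment and 0 with it adjusted, and leaving out 1 mouse gave 1 to 2. The adjusted t-test gave Keap1 its log2 change of -1.63 with an adjusted p of 0.14. Over everything tested, the calls numbered 19 higher and 25 lower in the fit reported, 68 and 114 with normexp, 46 and 95 with array weights, 40 and 53 with trend and robust, 245 and 268 averaged over the sexes, 943 and 1269 by the unadjusted t-test, 0 and 1 adjusted, and 8 and 12 with detection on all 8 arrays. Apart from the smaller sets of genes and mice, the cause was not tested. With slide in place of sex the fit was identical.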

Other observations

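The genes that lead into and out of the pentose phosphate pathway showed no call by limma outside the NADPH users and Keap1. The counts below stand against 7.37% of everything tested higher and 10.6% lower at an unadjusted p under 0.05. Of the 26 genes of glycolysis and its branch point tested, 0 were called, 3 were higher and 4 lower at an unadjusted p under 0.05, and the median log2 difference was -0.01. Hexokinase Hk2, which makes the glucose 6-phosphate that G6pdx uses, had a log2 level of -5.05 to -2.28 in the controls and -1.96 to -0.43 in the NEKO mice. Its groups did not overlap, its log2 difference was 2.01 (SE 0.65, limma adjusted p = 0.201), and its lowest value was that of control replicate 4, without which the difference was 1.30. It was well above background on 3 of 4 control arrays. The next largest differences were 0.43 for Pfkfb1, -0.38 for Pfkp and 0.37 for Pfkfb4 (limma adjusted p = 0.212, 0.266 and 0.299), the last of which was 0.24 without control replicate 4. Pfkp had -0.01 in females and -0.75 in males (limma interaction adjusted p = 0.151). Pfkfb4 had -0.01 in females and 0.76 in males (limma interaction adjusted p = 0.19).

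Of the 11 genes of NAD supply tested, 0 were called by limma, 1 was higher and 0 lower at an unadjusted p under 0.05. That gene was Nampt, the rate-limiting enzyme of NAD salvage, with a log2 level of 2.46 to 3.05 in the controls and 3.24 to 3.55 in the NEKO mice, a log2 difference of 0.52 (SE 0.11, limma adjusted p = 0.109). Kynu (1.36), Nnmt (0.84) and Acmsd (-0.29) had overlapping groups, with limma adjusted p of 0.355, 0.337 and 0.441. The difference was 0.56 for Kynu without control replicate 4, 0.54 for Nnmt without control replicate 7 and -0.13 for Acmsd without NEKO replicate 5. Of the 15 genes around malate, citrate and isocitrate, 0 were called by limma, 1 was higher and 2 were lower at an unadjusted p under 0.05. Both lower genes, the isocitrate dehydrogenase subunit Idh3g (-0.31) and the aminotransferase Got2 (-0.30), are mitochondrial and lay below every control in all 4 NEKO mice (limma adjusted p = 0.171 and 0.181). Got1 had -0.31 and Slc25a10 had 0.23 (limma adjusted p = 0.356 and 0.262). Among the 8 regulators, Keap1 alone was called, and the log2 difference was -0.46 for Nfe2l2, the gene of Nrf2, -0.60 for Trp53 and 0.45 for Srebf1 (limma adjusted p = 0.55, 0.461 and 0.324). Nfe2l2 had -1.29 in females and 0.37 in males (limma interaction adjusted p = 0.289), and -0.28 to -0.86 when 1 mouse was left out (NEKO replicate 3 and control replicate 4 at the ends of that range). Trp53 had no value in control replicate 1, which the fit left out for this gene, and its highest value was that of control replicate 4, without which the difference was -0.12. Srebf1 had 0.01 in females and 0.89 in males (limma interaction adjusted p = 0.351). Its difference was 0.29 without NEKO replicate 5 and likewise 0.29 without control replicate 4.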
